A study of Mus musculus with 4 samples.

Results

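A set of 8 cholesterol synthesis genes was examined in mouse tumours: Hmgcs1, Idi1, Fdps, Fdft1, Sqle, Lss and Cyp51, which encode enzymes of the pathway, and Insig1, which encodes its sterol-regulated inhibitor. They were taken by symbol, and all 8 were found among the 22512 gene symbols used from the deposited table, each with 1 row. RNA-seq had been performed on total RNA of tumours grown from CT26, a colon carcinoma cell line with the BALB/c strain background. The cells were either IL-34-deficient or overexpressed IL-34, a cytokine ligand of the CSF-1 receptor, and no library came from cells with unaltered IL-34. Tumours of each line were untreated or had received an antibody against PD-1, an inhibitory receptor of T cells, which gave 4 groups: untreated deficient, treated deficient, untreated overexpressing and treated overexpressing. Each group had 1 library, and the labels do not give the number of animals behind it, their age, the antibody dose, the time of sampling or how the lines were made. No value below therefore has a replicate error.

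Cholesterol is built from acetyl-CoA through mevalonate, farnesyl diphosphate, squalene and lanosterol. When sterols in the endoplasmic reticulum run low, SCAP escorts the transcription factor SREBP-2 to the Golgi, where it is cleaved and then switches on nearly the whole pathway together. INSIG proteins hold SCAP back in the endoplasmic reticulum when sterols are plentiful, whereas the oxysterol-activated receptors LXR switch on genes of cholesterol export. In tumours both the malignant cells and the infiltrating immune cells use the pathway.

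The upstream sequence of 3 of the 8 genes is shown as an example of letters linked to this shared control. RefSeq sequence on GRCm38.p6, the build of mm10, was at hand for 5 of the 8 genes (Hmgcs1, Idi1, Lss, Cyp51 and Insig1). Each line below runs 5′ to 3′ from base 250 to base 51 before the gene start in RefSeq. For Hmgcs1 that start lies 111 bases before the start of the model in the deposited table, and for Cyp51 and Insig1 both starts are the same. Capitals mark matches on either strand to TCACCCCAC (a sterol regulatory element core), to TCACCTCAG (a form of that element described for CYP51) and to CCAAT, the box bound by the SREBP partner NF-Y, which reads ATTGG on the other strand. The stretches are chr13:119690101-119690300 on the plus strand for Hmgcs1, chr5:4104748-4104947 on the minus strand for Cyp51 and chr5:28071162-28071361 on the plus strand for Insig1.
Hmgcs1: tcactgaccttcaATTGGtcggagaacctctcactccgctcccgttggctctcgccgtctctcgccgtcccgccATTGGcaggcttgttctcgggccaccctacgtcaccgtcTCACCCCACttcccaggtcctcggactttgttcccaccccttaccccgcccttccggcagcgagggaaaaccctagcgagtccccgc
Cyp51: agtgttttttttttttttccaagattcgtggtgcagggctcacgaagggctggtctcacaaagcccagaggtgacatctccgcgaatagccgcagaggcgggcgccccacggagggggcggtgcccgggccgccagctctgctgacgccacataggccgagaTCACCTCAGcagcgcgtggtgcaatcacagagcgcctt
Insig1: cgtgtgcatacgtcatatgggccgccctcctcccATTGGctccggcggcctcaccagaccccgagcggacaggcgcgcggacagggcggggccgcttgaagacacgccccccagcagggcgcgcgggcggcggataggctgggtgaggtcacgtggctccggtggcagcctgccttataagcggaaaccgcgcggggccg

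In the 250 bases before the start, TCACCCCAC occurred in Hmgcs1 of the 5 genes, at bases 137 to 129 before the start, and in 0.496% of 32851 promoters in the RefSeq set. The letters TCACCTCAG occurred in Cyp51, at bases 88 to 80 before the start, and in 0.295% of promoters. CCAAT occurred in all 5 genes and in 33.8% of promoters. In the GENCODE annotation the windows of Cyp51, Insig1, Lss and Idi1 overlap exons of the same gene, and that of Idi1 also Gm48574. The stretches printed above overlap no annotated exon. In Insig1 the E-box CACGTG, which lies in the lower-case letters above, was found at bases 101 to 96 before the start, and 6.02% of promoters hold it. The looser TCACNNCAC, in 3.11% of promoters, was found once among the 5 genes, at the same bases of Hmgcs1; the other motifs do not overlap each other in these windows. The motifs were chosen with the sequences in view, and a match describes the letters and not a bound site.

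The 8 genes were expressed at moderate to high levels in every library and differed little between them. The highest of the 4 values exceeded the lowest by between 1.15-fold for Insig1 and 1.24-fold for Idi1, with a median of 1.17-fold. None of the 8 reached a ratio of 1.5 between highest and lowest FPKM (the fragments of a gene corrected for transcript length and for the number mapped in that library). That ratio was reached by 16.6% of the 11772 genes measured above 0 in every library and at 1 FPKM or more in at least 1. Among the 4908 of those genes with mean levels within the range of the 8, the median ratio was 1.17 and 7.82% reached 1.5, so the small range of the 8 was near that of the middle gene of like level. Without the treated deficient library, which stood apart as described next, the ratios of the 8 genes lay between 1.08 and 1.20. Their median was then 1.15, beside 1.08 for the genes of like level and 1.11 for all genes.

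Across genes the treated deficient library correlated with the others at 0.975 to 0.982 (Pearson r), while r among the others was 0.994 to 0.996. This is a description across genes, which are no replicates. Relative depths, read from the size of the lowest values, were 90.0% to 95.2% of the untreated deficient library, and the total depth is unknown. The FPKM sums lay between 488881 and 543926, lowest in the treated deficient library. Il34 itself was at 3.52 and 3.02 FPKM in the deficient libraries and at 104 FPKM in both overexpressing libraries, the direction of the labels. The treated deficient library also held more RNA of skin, muscle and immune cells. The 10 epidermal markers summed to 119 FPKM there and to between 1.58 and 4.88 FPKM elsewhere, where up to 6 of the 10 were at 0. The 10 skeletal muscle markers summed to 411 FPKM there and to between 13.3 and 126 FPKM elsewhere. The 8 macrophage markers summed to 3467 FPKM there against 1832 to 2076 FPKM, and the 7 T cell markers to 131 FPKM against 31.4 to 55.3 FPKM. The 8 markers of sebaceous glands, which make much sterol and wax, summed to 66.9 FPKM there and to between 46.5 and 54.5 FPKM elsewhere, with 1 of the 8 at 0 there and 2 or 3 at 0 elsewhere. Their median was 0.70 FPKM there and 0.56 to 0.74 FPKM elsewhere. Soat1, a sterol acyltransferase gene, was the most abundant in every library, at 35.6 FPKM there against 37.6 FPKM in the untreated deficient library. Mgst1, the next most abundant, was at 26.8 FPKM there and at 13.2, 10.7 and 8.93 FPKM elsewhere. The 6 epithelial markers expected of a colon carcinoma were low, with Epcam below 1 FPKM in every library. They summed to 8.01 FPKM in the untreated deficient library, in which 7 of the 8 synthesis genes had their highest FPKM, and to between 0.861 and 1.86 FPKM elsewhere. The keratin genes Krt8, Krt18 and Krt19 were at 1.94, 2.29 and 2.74 FPKM in that library. Up to 2 of the 6 epithelial markers were at 0 in the others. Cdh1, also of the 6, went the other way and was lowest in the untreated deficient library, at 0.484 FPKM. It was at 1.40 FPKM in the treated deficient, 0.586 in the untreated overexpressing and 0.547 in the treated overexpressing library. The part of these cells in the values of the 8 genes was not tested. In whole tumours, fewer cells of a type and less RNA per cell cannot be told apart.

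The early steps are represented by Hmgcs1, the cytosolic HMG-CoA synthase (chromosome 13, 119690462 to 119708077, mm10). Hmgcs1 was at 48.8 FPKM in the untreated deficient library, 41.6 in the treated deficient, 46.9 in the untreated overexpressing and 45.0 in the treated overexpressing library. Its lowest value was thus that of the treated deficient library. Idi1 encodes the isomerase that interconverts the isoprene units (chromosome 13, 8885606 to 8892396). Idi1 was at 28.8, 23.1, 26.7 and 27.6 FPKM in the same order. It had the widest range of the 8, and 3 of its 4 values lay close together above that of the treated deficient library. Fdps encodes farnesyl diphosphate synthase, which supplies both sterols and protein prenylation (chromosome 3, 89093588 to 89101967). Fdps was at 165, 144, 143 and 145 FPKM, the highest level of the 8 in every library, with the untreated deficient library above 3 nearly equal values.

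The enzymes committed to sterols begin with Fdft1, squalene synthase (chromosome 14, 63145150 to 63177793). Fdft1 was at 24.2, 20.8, 21.5 and 20.8 FPKM, again highest in the untreated deficient library. Its model shares 774 bases with that of Ctsb, a cathepsin gene at 281 to 390 FPKM that was highest in the treated deficient library, so reads there could be assigned to either gene and the value of Fdft1 is uncertain. Sqle encodes squalene epoxidase, a rate-limiting enzyme of the later pathway (chromosome 15, 59315092 to 59331193). Sqle was at 41.0, 35.2, 34.1 and 36.1 FPKM, so the untreated deficient library was high and the other 3 were within a few FPKM of each other. Lss, lanosterol synthase, closes the sterol rings (chromosome 10, 76531627 to 76553934). Lss was at 14.3, 12.3, 13.1 and 12.6 FPKM, the lowest level of the 8 in every library.

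The remaining genes are Cyp51 and Insig1. Cyp51 encodes the demethylase of lanosterol (chromosome 5, 4080674 to 4104697) and was at 38.1, 38.9, 34.3 and 33.0 FPKM, higher in both deficient than in both overexpressing libraries. Insig1, the inhibitor and itself an SREBP target (chromosome 5, 28071412 to 28078662), was at 30.2, 28.7, 28.2 and 26.3 FPKM. The treated overexpressing library was thus lowest for both. Over the set, 7 of the 8 genes were highest in the untreated deficient library, which held the highest value for 31.2% of all genes, and Cyp51 was highest in the treated deficient library. The lowest value was in the treated deficient library for 4 genes and in each overexpressing library for 2. These counts are of FPKM and depend on the scaling of each library. After rescaling to TPM, Insig1 was higher in the treated than in the untreated deficient library, at a log2 ratio of 0.08.

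**Figure D1:**
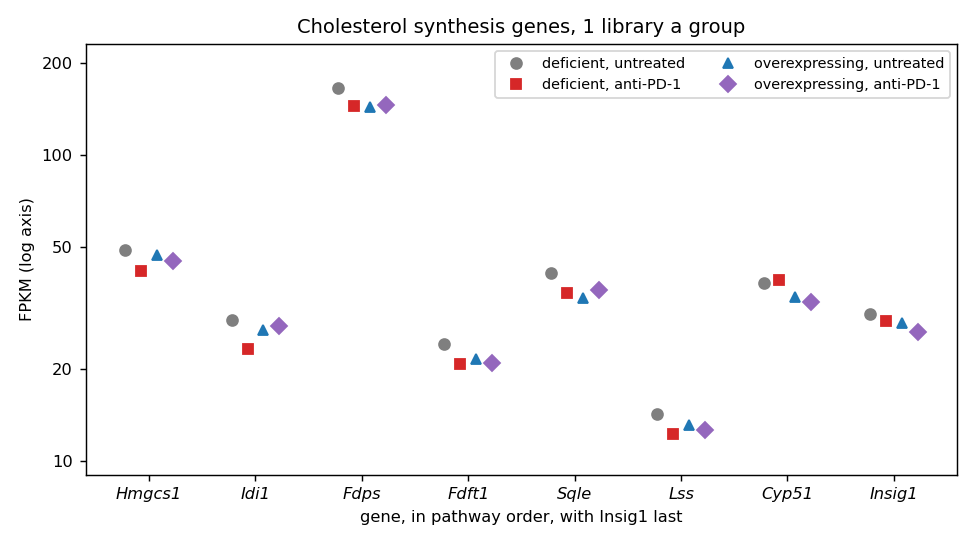
FPKM of the 8 genes on a log axis, with 1 point for each of the 4 libraries and no error bars because each group has 1 library. Fdps lies at 143 to 165 FPKM and Lss at 12.3 to 14.3 FPKM, and the points of each gene lie within a 1.24-fold range.

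The order of levels among the genes, which does not depend on the scaling of a library, was nearly fixed. Fdps was first, Hmgcs1 second, Fdft1 seventh and Lss eighth in every library. Sqle and Cyp51 exchanged ranks 3 and 4: Sqle was above Cyp51 in the untreated deficient and treated overexpressing libraries, and Cyp51 was above Sqle in the other 2. Insig1 was above Idi1 in all libraries except the treated overexpressing one. With 1 library a group there is no spread by which to rank these neighbours. As a share of the summed FPKM of the 8, Fdps took 41.2% to 42.3% and Fdft1 6.02% to 6.19%. Cyp51 moved from 9.53% to 11.3% and Idi1 from 6.71% to 7.98%. The sum itself, which does depend on that scaling, was 390 FPKM in the untreated deficient library and 345, 348 and 346 FPKM in the other 3. All gene rows together summed to 543926 FPKM in the untreated and 488881 FPKM in the treated deficient library. In the untreated and treated overexpressing libraries they summed to 523753 and 518464 FPKM.

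The first comparison asked how anti-PD-1 changed the pathway in IL-34-deficient tumours. The ratios that follow are log2 ratios of FPKM + 1, and a gene is counted as different by size at a ratio of at least 1.5-fold, a log2 of 0.58. None of the 8 genes was counted, against 7.26% of 11717 genes tested. With treatment, 7 of the 8 were lower, from −0.30 for Idi1 (0.804-fold) to −0.07 for Insig1 (0.949-fold), and Cyp51 was at 0.03 (1.02-fold). A ratio below 0 was found for 59.8% of all genes. The median of the 8 was −0.20 beside −0.06 over all genes. Rescaling to TPM, in which every library has the same sum, added 0.14 to the median of all genes, which became 0.08. On that scale the 8 had a median of −0.06, with 2 above 0 and 6 below. Idi1, Hmgcs1 and Sqle lay within the 5th to 95th percentile of all genes, −0.41 to 0.63, as did the other 5.

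In IL-34-overexpressing tumours the treated and untreated libraries were closer to each other. By size 0 of the 8 genes were counted, against 1.27% of 11462 genes. The ratios ran from −0.10 for Insig1 to 0.08 for Sqle, with 3 above 0 and 5 below, and a ratio below 0 was found for 50.9% of all genes. For Sqle the 2 values were 36.1 and 34.1 FPKM (1.06-fold), and for Insig1 they were 26.3 and 28.2 FPKM (0.934-fold). The median was −0.05 beside 0.00 over all genes.

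The difference of the responses, overexpressing minus deficient, asked whether anti-PD-1 acted differently between the lines. It was positive for 6 of the 8 genes, and a positive difference was found for 59.2% of 11815 genes. A log2 of 0.58 in size was reached by 0 of the 8 and by 8.45% of all genes. The largest differences were 0.35 for Idi1 and 0.29 for Sqle, and Cyp51 and Insig1 had −0.08 and −0.02. The median was 0.17 beside 0.05 over all genes. After rescaling to TPM, which moved the median of all genes by −0.13, it was 0.03 beside −0.07 over all genes. No test of this difference can be made with 1 library a group, as nothing is left to estimate an error.

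The lines were then compared within each treatment, with libraries shared between these comparisons and those above. Without treatment all 8 genes were lower in the overexpressing library, and none was counted by size, against 0.645% of 11468 genes. A ratio below 0 was found for 59.9% of all genes. The ratios ran from −0.06 for Hmgcs1 (0.960-fold) to −0.26 for Sqle (0.832-fold), with a median of −0.13 beside −0.03 over all genes. All 8 also stayed below 0 after rescaling to TPM and after dividing each library by its median ratio to the other libraries. Sqle lay below the 5th percentile of all genes, −0.22, and the other 7 lay above it. This comparison had the narrowest spread of all genes, so that a small ratio was far out among them. The design does not separate loss of IL-34 from its overexpression or from other properties of the cell lines, and these cannot be told apart.

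With anti-PD-1 the genes were divided between the lines. None was counted by size, against 7.46% of 11737 genes. Idi1 was higher in the overexpressing library by 0.25 (1.20-fold), and Cyp51 was lower by −0.23 (0.850-fold). Fdft1 and Fdps were at 0.00 and 0.01, and a ratio above 0 was found for 6 of the 8 genes and for 56.8% of all genes. This count depended on the scaling, as 2 of the 8 were above 0 after rescaling to TPM, with a median of −0.06 beside −0.04 over all genes. The median was 0.02 beside 0.04 over all genes.

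**Figure D2:**
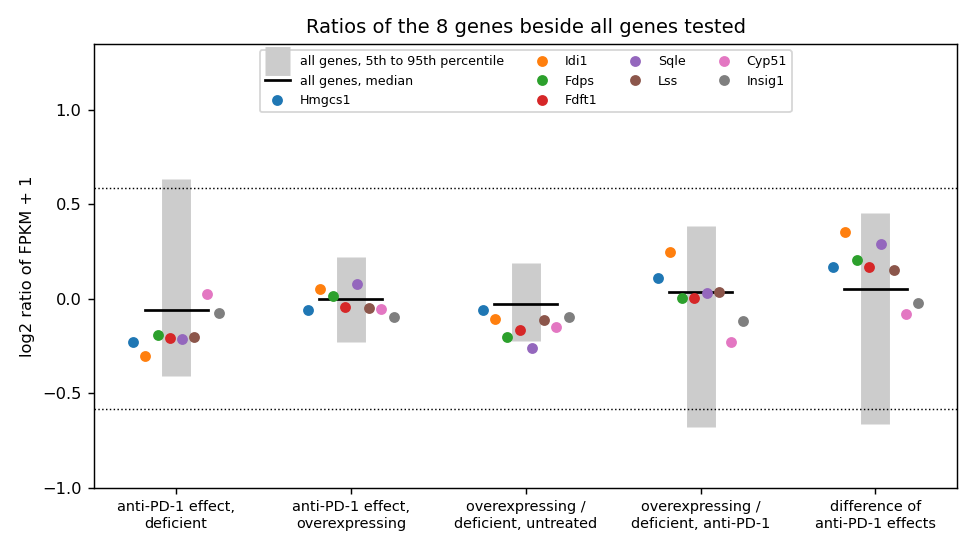
Log2 ratios of FPKM + 1 of the 8 genes (coloured points) in the 4 comparisons and in the overexpressing minus deficient difference of responses, with the 5th to 95th percentile of all genes tested as grey bars, their median as black lines and the 1.5-fold size as dotted lines. No point reaches a dotted line, and Sqle lies under the bar in the comparison of untreated lines.

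Averages over both treatments or both lines were tested with limma across 11815 genes, in an additive fit in which the interaction of line and treatment serves as the error, on 1 residual degree of freedom. None of the 8 genes was called for the IL-34 effect, for which 0.00846% of genes were called, namely Il34 alone. Log2 differences ran from −0.19 for Cyp51 (SE 0.10, limma adjusted p = 1) to 0.07 for Idi1 (SE 0.12). For anti-PD-1, 0% of genes were called at an adjusted p of 0.05, 531 genes had an unadjusted p under 0.05, and none of the 8 was among them. The 8 log2 differences ran from −0.14 for Hmgcs1 (SE 0.11, limma adjusted p = 0.916) to −0.01 for Cyp51 (SE 0.10). A difference below 0 was found for all 8 and for 58.5% of all genes. After rescaling to TPM it was found for 6 of the 8 and for 35.3% of 12684 genes. These errors do not come from replicates, and a p above the threshold does not show that the levels were equal.

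The other 14 enzymes of the pathway were examined in the same way. In the anti-PD-1 comparison of deficient tumours 4 were above 0 and 10 below, where 59.8% of all genes were below 0. The median was −0.10, and 0 were counted by size, against 7.26% of all genes. After rescaling to TPM 8 were above 0 and 6 below, with a median of 0.04 beside 0.08 over all genes. The lowest were Tm7sf2, a sterol reductase, at −0.27 and Acat2, the thiolase that makes acetoacetyl-CoA, at −0.26. The highest was Dhcr7, which makes cholesterol from 7-dehydrocholesterol, at 0.20. In the overexpressing line the median was −0.04, and between untreated lines −0.12 with 11 of 14 below 0. Over all genes the median between untreated lines was −0.03, and 59.9% were below 0. Under anti-PD-1, Ebp, a sterol isomerase, was at 17.7 FPKM in the overexpressing and 24.7 FPKM in the deficient library, a ratio of −0.45. In that comparison 0 of 14 were counted by size, against 7.46% of all genes.

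**Figure D3:**
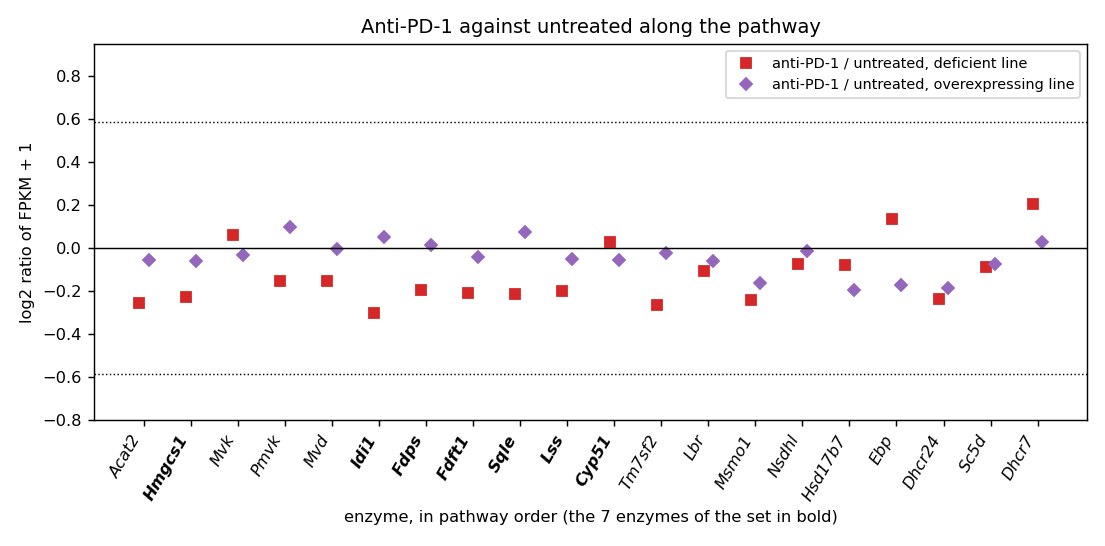
Log2 ratio of FPKM + 1, anti-PD-1 against untreated, for 20 enzymes in pathway order, in the deficient line (squares) and the overexpressing line (diamonds), with the 1.5-fold size as dotted lines. All points lie between the dotted lines, and the steps from Idi1 to Lss lie at −0.19 to −0.30 in the deficient line.

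The regulators of the pathway were examined next. Srebf2, which encodes SREBP-2, was at 56.5, 57.3, 53.8 and 58.6 FPKM, and Scap, its escort, at 19.9, 21.2, 19.6 and 20.2 FPKM. Srebf1, the gene of SREBP-1, which controls fatty acid synthesis and is itself an LXR target, was at 45.0, 53.7, 45.1 and 41.8 FPKM, highest in the treated deficient library. Insig2, the second INSIG gene, was at 16.5, 12.4, 14.7 and 14.8 FPKM, lowest in that library, whereas Insig1 was not. The ratio of Insig1 to Insig2 was 2.31 there and 1.78 to 1.92 in the other libraries. Of the 12 genes of SREBP control 0 were counted by size in any of the 4 comparisons. Over all genes the shares counted for anti-PD-1 were 7.26% in the deficient and 1.27% in the overexpressing line. Between the lines they were 0.645% without treatment and 7.46% with anti-PD-1.

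In the treated deficient library, genes of LXR control and cholesterol export had other values than those of synthesis. Of 8 LXR receptor and target genes, 5 were higher there by 1.5-fold than in the untreated deficient library, beside 0 of the 8 synthesis genes and 5.62% of all genes, and the median ratio was 0.97. Apoe, the lipid carrier apolipoprotein E, was at 836, 1928, 956 and 587 FPKM, and Abcg1, a sterol exporter, at 6.98, 17.5, 7.52 and 5.84 FPKM. Abca1, the exporter to lipid-poor apolipoprotein A-I, was at 7.34, 14.3, 8.83 and 7.47 FPKM. The ratio of Apoe to Hmgcs1, free of library scaling, was 46.4 in the treated deficient library and 13.1 to 20.4 in the others. In the overexpressing line the median of the LXR list with anti-PD-1 was −0.21. Under anti-PD-1 all 8 genes of this list were lower in the overexpressing library, as were 5071 of 11737 genes. The ratios ran from −1.71 for Apoe to −0.01 for the receptor gene Nr1h2, and 5 of the 8 were lower by 1.5-fold, beside 6.19% of all genes. Macrophages express Apoe, Abca1 and Abcg1 strongly. The 8 macrophage markers had a median of 0.69 in the deficient line and −0.15 in the overexpressing line. Not all of them moved alongside the LXR list. Mrc1 was at 0.17 in the deficient and 0.36 in the overexpressing line, and Fcgr1 at 0.38 and 0.11. The part of macrophages in the values of the LXR list was not tested. The difference between the synthesis and LXR lists was described and not tested.

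Other lists of lipid metabolism were described in the deficient line. Of 11 fatty acid synthesis genes, Me1, malic enzyme, was lower by 1.5-fold in treated than in untreated deficient tumours, at 11.4 against 17.6 FPKM, as were 1.64% of all genes, and the median of the list was 0.07. The log2 ratio of Me1 was −0.58 and missed the 1.5-fold size after rescaling to TPM, at −0.46, after division by the median ratio, at −0.50, and with a pseudocount of 5, at −0.46. Of 7 genes of sterol uptake and transport with FPKM of at least 1, none was counted, against 7.26% of all genes, and the median was 0.11. The 9 enzymes of other isoprenoid products had a median of −0.11, and of 0.04 after rescaling to TPM, beside −0.06 and 0.08 over all genes. Ch25h, which makes the LXR ligand 25-hydroxycholesterol, was higher with anti-PD-1 in both lines, at 64.0 against 45.3 FPKM in the deficient and 51.8 against 35.9 FPKM in the overexpressing line. Its log2 ratios of 0.49 and 0.52 were under the 1.5-fold size. Cycling cell genes, which rise with cell division, had a median of −0.22 in the deficient line, beside −0.20 for the 8 synthesis genes, and 0.01 in the overexpressing line, and the part of cell division in the values was not tested. Hypoxia-induced genes had a median of −0.82 in the deficient line and 0.16 in the overexpressing line.

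**Figure D4:**
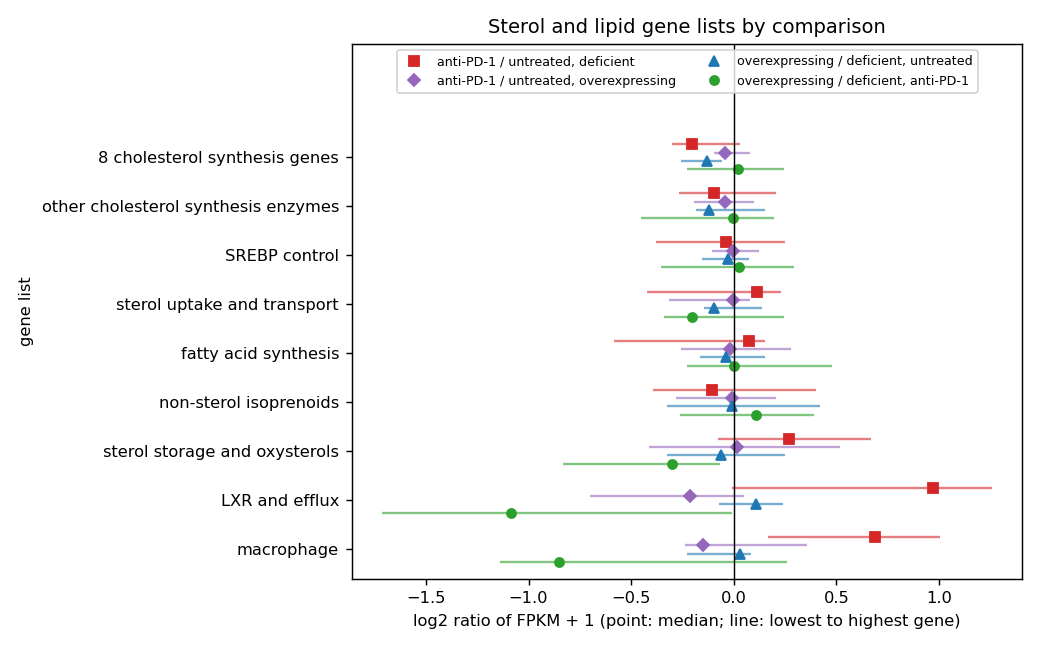
Median log2 ratio of FPKM + 1 (points) and the lowest to highest gene (lines) of 9 gene lists in the 4 comparisons. The synthesis lists lie near 0 in each, while the LXR and efflux list reaches a median of 0.97 and the macrophage list 0.69 for treated against untreated deficient tumours.

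Among the 6 genes most like the mean profile of the 8 were Kifc5b, Acot9, Slc19a2, Mrpl2 and Vprbp. Likeness was the Euclidean distance between log2 FPKM + 1 values centred over the 4 libraries, among 8991 other genes with FPKM of at least 5 in some library. The 6 distances were 0.01 to 0.02, against 0.03 for Fdft1 and 0.19 for Cyp51, the nearest and farthest of the 8. The median distance of all these genes was 0.19. Acot9 was at 46.8, 41.7, 42.5 and 42.1 FPKM and Mrpl2 at 47.7, 41.9, 43.2 and 42.8 FPKM.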

How the data were processed

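The submitters' processing notes name the mm10 build and the tools TopHat2 2.1.0, Cufflinks 2.2.1 and CASAVA 1.8.2; settings and strand handling are not stated in the sources used here. The authors deposited FPKM values for 23745 gene rows, with 1 column per library. FPKM is scaled to all mapped fragments, so abundant transcripts lower all others. Without counts, no interval was computed. Of 21014 starts matched to RefSeq by symbol, 11606 lie 1 base below RefSeq's and 699 equal it, so starts were read as counted from 0 and raised by 1.

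Rows of short RNAs (812) were left out, and of several rows for a symbol the highest was kept. The FPKM sums of the libraries and the rescaling to TPM still used all gene rows, those left out included. Of 160 genes in 19 lists, 159 were matched, 2 through an accession (Msmo1 and Adgre1). Ratios were log2 of FPKM + 1, for genes that reached 1 FPKM in a library compared. limma 3.58.1 in R 4.3.3 was run with a mean-variance trend and Benjamini-Hochberg adjustment. It was also run on simulated data with independent errors and no interaction of line and treatment. That simulation does not show how well the fit works for these libraries. Python 3.11.15, numpy 2.4.6, pandas 2.3.3 and matplotlib 3.10.9 were used for the rest. Alternatives were other pseudocounts, scalings, FPKM minimums and row rules, and the mean. The members and lists were chosen with earlier results of these data known; the motifs were chosen with the sequences in view. Genes were named from the lists of synthesis and control, the most abundant or past 2-fold of other lists, and the 6 most alike. Ch25h, Me1, Krt8, Krt18, Krt19, Cdh1, Mrc1, Fcgr1 and Ctsb were named after their values were seen. Some genes under this rule are not reported here.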

Additional observations from a re-analysis of the deposited data

Results flagged for a closer look

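Apoe stood out because the libraries of the lines moved in opposite directions with anti-PD-1. Its log2 ratio was 1.20 in the deficient line and −0.70 in the overexpressing line. With 1 library a group this difference was not tested. None of the 8 cholesterol synthesis genes had such a pattern past 1.5-fold.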

How the results depend on the processing

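No paired analysis was possible because each group has 1 library. Of 77 alternative values of the main results, 68 stayed within 0.1 on the log2 scale or within 1.5 times for a count. After rescaling to TPM the median of the 8 genes was −0.06 in the anti-PD-1 comparison of deficient tumours and 0.03 in the difference of responses, since this scaling raises the treated deficient library as a whole. The medians of all genes were then 0.08 and −0.07. The distance of the 8 from the median of all genes was −0.15 before and −0.14 after rescaling in the first, and 0.11 both times in the second. With a minimum of 5 FPKM, which tests fewer genes, the genes past 1.5-fold numbered 557 and 73 for anti-PD-1 in the deficient and overexpressing lines, 28 and 541 between untreated and treated lines, and 604 for the difference of responses. limma's count for IL-34 was 2 with that minimum and 0 with no minimum, where 822 genes had an unadjusted p under 0.05, with Cyp51 of the 8 among them. None of the 8 passed 1.5-fold under any scaling, pseudocount or row rule tried. Leaving out each library in turn, an alternative added after seeing the data, gave a largest range among the 8 of 1.20 to 1.24.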
